A study of Homo sapiens with 24 samples.

Results

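The 600 brightest oligonucleotide probes in untreated HEK cells, out of 39400 probes for human genes, are described here over 3 treatments and their untreated control. HEK is a human embryonic kidney cell line, and each sample was hybridized to a pair of one-colour Cy3 arrays, called A and B by the letters in the sample titles, which hold 19700 probes each and share none. Members were chosen by the spot intensities of the untreated arrays: within each letter, probes were ranked on each of the 3 untreated arrays, the 3 ranks were averaged, and the 300 probes with the best mean rank were taken. The intensities of the untreated arrays are therefore a description of the choice and support nothing. The treated arrays took no part in the choice. As given below, they shared many of their brightest probes with the untreated array of their number. Their values are therefore not wholly free of the choice.

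The 12 samples were cells given 50 uM of a DNA minor groove binding ligand, cells irradiated with 2 Gy, cells given 50 uM of the ligand 1 h before 2 Gy, and untreated cells, with 3 replicate numbers of each. All cells were plated 24 h before the experiment, and RNA was taken 4 h after treatment. Total RNA was amplified from an oligo(dT) primer before labelling. The labels name no vehicle for the untreated cells and do not say whether the replicate numbers stand for separate cultures, so any p-value here is set against a spread that may be no more than technical.

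In growing cultured cells the most abundant polyadenylated messages commonly encode ribosomal proteins, translation factors, cytoskeletal proteins, chaperones and enzymes of glycolysis. Ionizing radiation breaks DNA and sets off the DNA damage response. Ligands of the minor groove lie in the narrow groove of the double helix, mostly along stretches rich in A and T, and several have been studied as modifiers of radiation damage.

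The brightness of a spot depends on the binding of its oligo as well as on the amount of transcript, so the members are the brightest probes and not a measured ranking of transcripts. Looked up in RefSeq's gene table, 0 of the identifiers were found, so the members are named by identifier, and no gene group, marker of HEK cells or marker of another cell type was analysed. In these bulk samples, fewer cells of a type and less RNA per cell cannot be told apart.

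The arrays differed in brightness and in which probes were brightest. The median probe intensity ranged over the treated and untreated arrays between 34.5 and 677 on letter A and between 179 and 531 on letter B, and the lowest was the radiation array of number 3. The 300 brightest probes of a pair of arrays were shared more by replicate number than by treatment: arrays of 1 number and different treatments shared a median of 233.5 (A) and 239.5 (B), and arrays of 1 treatment and different numbers shared 137 (A) and 142.5 (B).

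Number 2 went against this, most of all on letter A. On letter A, the radiation array of number 2 shared 228 to 240 of its 300 brightest probes with the 4 arrays of number 1, and 115 and 116 with the ligand and untreated arrays of its own number. The ligand and radiation array of number 2 likewise shared 230 to 242 with number 1, against 124 and 123 with those ligand and untreated arrays. The irradiated pair shared 256 with each other, and the ligand and untreated arrays of number 2 shared 258. On letter B, the radiation array of number 2 shared 229 to 246 with number 1 and 160 and 166 with the ligand and untreated arrays of number 2, which shared 272 with each other. The ligand and radiation array of number 2 did not follow it on B. That array shared 154 to 159 with number 1, no more than the untreated array (154 to 167) and about as many as the ligand array (142 to 157) of number 2, and it shared 161 with the radiation array and 108 and 115 with the ligand and untreated arrays of its own number. Within number 2, irradiation and whatever else separates these arrays cannot be told apart. In number 1 the 4 arrays shared 237 to 268 (A) and 235 to 266 (B) with one another, irradiated or not, and in number 3 they shared 207 to 245 (A) and 233 to 256 (B). Results that rest on number 2 are given below with and without it.

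The members were far above the controls printed on the arrays. The arrays of numbers 1 and 2 list their control spots. On the treated ones the members' median intensity was 97.2 to 605 times that of empty spots. It was 13.0 to 38.4 times that of plant control oligos. The untreated arrays, which chose the members, gave 158 to 772 and 12.2 to 43.1. No more than 3 members of a letter fell below the plant median on any of these arrays. On the A arrays of number 1 the median member had an intensity of 14119 with ligand, 9630 with radiation, 7621 with ligand and radiation and 16068 without treatment. On those of number 3 it had 1931, 328, 1714 and 2340 in the same order. Number 3 was thus the dimmest number throughout letter A, and its radiation array the dimmest of all.

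The top of the scale was compressed on the brightest arrays. Of all member values, 82 lay within 500 below 65535, the largest number a 16-bit scan holds, against 5 in the next 500 down. None lay between 65535 and 94499, and 77 values on 9 arrays lay above that, up to 224898. Number 1 held 77 of the 82 values just below the limit and 76 of the 77 above it. In all, 66 members had a value in that band or above it on some array, so the order and the differences among the brightest spots of number 1 are less sure than those further down.

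The limit of the choice falls among closely spaced probes. On letter A the last probe taken, obshum40K:A#01404, had a mean rank of 715 from untreated ranks of 425, 1242 and 478, and the first left out, obshum40K:A#14543, had 718.7 from 1276, 601 and 279. For letter B, obshum40K:B#15105 was taken at 556.3 (ranks 329, 594 and 746) and obshum40K:B#22371 left out at 558.3 (816, 496 and 363). A mean rank beyond 300 among the first 300 probes reflects how little the untreated arrays shared: numbers 1 and 2 had 130 (A) and 163 (B) of their 300 brightest probes in common, numbers 1 and 3 had 156 and 137, and numbers 2 and 3 had 78 and 95.

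About 1 in 2 members was among the 300 brightest of its letter on any given treated array. Counted over both letters, 325, 328 and 288 of the 600 members were there in the ligand samples of numbers 1, 2 and 3. The radiation samples held 321, 327 and 276, and the ligand and radiation samples 303, 266 and 278, against 321, 343 and 277 in the untreated samples that chose them. The means were 314 ± 22.3 for ligand, 308 ± 27.9 for radiation, 282 ± 18.9 for ligand and radiation and 314 ± 33.6 for untreated samples (SD, n = 3 each). These ranges overlap between all 4 treatments. The median treated sample held 303, which is 50.5%, and the untreated arrays used for the choice held no more on average than the ligand arrays did. Treated arrays shared brightest probes with the untreated array of their number, as given above, so these counts partly repeat the choice. By number, the treated samples averaged 316 in number 1, 307 in number 2 and 281 in number 3.

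Most members that left the brightest 300 stayed near it. Within the brightest 1000 of their letter were 563, 563 and 546 members in the ligand samples, 571, 575 and 523 in the radiation samples and 575, 570 and 550 in the ligand and radiation samples, against 578, 570 and 558 in the untreated samples. The low value of the radiation sample of number 3 comes from letter A, where 61 of 300 members were beyond place 1000, on the dimmest array.

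A member's place in the choice went with how often it was found again. Among places 1 to 100 of each letter, the median member was in the brightest 300 on 8 of the 9 treated arrays of its letter, against 4 for places 101 to 200 and 1 for places 201 to 300. All 72 members that were there on all 9 treated arrays (32 on A and 40 on B) were among the first 100 places, and no probe outside the choice reached all 9. In turn, 79 members were in the brightest 300 on none of the 9: 14 from the middle places and 65 from the last. Of the 134 members that were in the brightest 300 on all 3 untreated arrays, 67 were there on all 9 treated arrays too, 31 on A and 36 on B. A further 117 members entered by their mean rank without being among the brightest 300 of any untreated array, and 76 of these were not there on any treated array.

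The same choice made from the arrays of each treatment gave lists that split by irradiation, and this split rested on number 2. With all 3 numbers, the ligand list shared 264 (A) and 276 (B) of its 300 probes with the untreated list, while the radiation list shared 168 and 221 with it and the ligand and radiation list 172 and 216. The ligand and radiation list shared 245 and 252 with the radiation list and 163 and 212 with the ligand list. From numbers 1 and 3 alone, the overlap with the untreated list was 259 and 260 for ligand, 245 and 252 for radiation and 242 and 247 for ligand and radiation. All 4 lists then had 201 (A) and 207 (B) probes in common, against 135 and 185 with number 2 included. Each share is of lists of 300, and the lists share no arrays with each other.

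The first member of letter A by mean rank, obshum40K:A#40839, stayed within the first 33 places on every array. It ranked 33, 22 and 5 in the ligand samples of numbers 1, 2 and 3, 16, 6 and 11 in the radiation samples, 13, 2 and 2 in the ligand and radiation samples and 7, 11 and 2 in the untreated samples. Its quantile-normalized log2 intensity averaged 14.77 ± 0.66 with ligand, 15.09 ± 0.32 with radiation, 15.56 ± 0.55 with ligand and radiation and 15.43 ± 0.42 in untreated cells (SD, n = 3 each). The 4 ranges overlap. The next, obshum40K:A#03518, ranked 10, 53 and 155 with ligand, 3, 3 and 637 with radiation, 2, 3 and 20 with ligand and radiation and 1, 49 and 5 untreated. Its worst place by far was on the radiation array of number 3, the dimmest array, and the reason was not tested. On that array obshum40K:A#03410 was also at place 782, against places between 11 and 176 on the other treated arrays, whereas obshum40K:A#09805 was at place 4 and obshum40K:A#39976 at place 7. The leading probes thus did not all rank low on that array.

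On letter B the first member, obshum40K:B#42298, ranked 29, 41 and 21 with ligand, 6, 16 and 4 with radiation, 7, 26 and 33 with ligand and radiation and 5, 12 and 5 untreated. Its normalized log2 intensity was 13.82 ± 0.34 with ligand, 15.13 ± 0.65 with radiation, 14.29 ± 0.81 with ligand and radiation and 15.26 ± 0.47 in untreated cells (SD, n = 3 each). The untreated level chose this probe, so its distance from the ligand level carries no test. The steadiest of the 5 leading B members was obshum40K:B#20433, at places 15 to 38 on all 9 treated arrays and 35, 20 and 54 untreated. The other 3 moved more: obshum40K:B#35572 ranked between 1 and 38 on the treated arrays, obshum40K:B#40159 between 5 and 198, and obshum40K:B#41229 between 6 and 104, the worst place of the last pair being the ligand array of number 3.

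Members varied more between replicate numbers than the average probe did. The standard deviation of normalized log2 intensity over the 3 numbers of a treatment had a member median of 0.71 with ligand, 0.55 with radiation, 0.47 with ligand and radiation and 0.67 in untreated cells. Over all probes it was 0.44, 0.41, 0.39 and 0.45 in the same order. A standard deviation above 1, which is a factor of 2, was found for 206 members (34.3%) with ligand, 123 (20.5%) with radiation and 77 (12.8%) with ligand and radiation, against 183 (30.5%) untreated. For all probes these shares were 12.1%, 9.31%, 8.70% and 11.97%. The average probe was much dimmer and nearer the plant controls. Its median was 651 against a plant median of 368 on the A ligand array of number 1. On the B radiation array of number 2 it was 179 against 128. Members were not compared with other probes of like brightness, so the part of brightness in their wider spread was not tested. The overlaps of the number 2 arrays with number 1, given above, also differed between these treatments on letter A, and their part in the order was not tested.

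Replicate number also outweighed treatment within members. Over the 9 treated arrays, 58.5% of the members' summed squares went with the number, 13.4% with the treatment and 28.1% with neither, against 63.1%, 12.7% and 24.3% for all probes. The share going with number was the larger for 455 of 600 members (75.8%), against 82.4% of all probes. Per degree of freedom, treatment was 0.957 times the remainder for members, and number 4.16 times. Without number 3, treatment took 39.3% and number 22.8% of the members' summed squares, with 37.4% and 29.2% for all probes. Without number 2, treatment took 13.8% and number 72.3%. Leaving out a number lowers the degrees of freedom of number and not those of treatment, so these shares cannot be ranked as they stand.

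The members with the smallest spread over the 9 treated arrays lay low in the choice. The spread of obshum40K:B#14152 was 0.13 on the log2 scale, with places 456, 487 and 398 (ligand), 479, 393 and 382 (radiation) and 554, 508 and 486 (ligand and radiation), against 468, 508 and 359 untreated. Its normalized level was 11.02 ± 0.10, 11.09 ± 0.12 and 10.88 ± 0.07 in the 3 treatments and 11.03 ± 0.18 in untreated cells (SD, n = 3 each). Close to it were obshum40K:B#28903 (0.14) and obshum40K:B#25526 (0.17). On letter A the steadiest were obshum40K:A#12145 (0.15), at places 489 to 754 on the treated arrays, obshum40K:A#08012 (0.19) and obshum40K:A#09552 (0.21). Over all members the spread had a median of 0.63 and ran between 0.13 and 2.94.

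Of the 6 members with the widest spread, 3 per letter, 4 varied with the replicate number or within number 2. On letter A, obshum40K:A#39965 ranked 2, 76 and 937 in the ligand samples of numbers 1, 2 and 3, 1, 2 and 1422 in the radiation samples, 1, 9 and 816 in the ligand and radiation samples and 3, 101 and 1676 untreated. It was among the first 3 probes on each array of number 1 and beyond place 800 on each array of number 3. In the other direction, obshum40K:B#31992 ranked 786, 945 and 12 with ligand, 429, 244 and 11 with radiation, 189, 501 and 12 with ligand and radiation and 285, 308 and 15 untreated. It was near the top in number 3 alone. The pattern of number 2 stands out in obshum40K:B#18676, which ranked 1, 1119 and 13 with ligand, 7, 3 and 14 with radiation, 4, 1 and 3 with ligand and radiation and 3, 922 and 7 untreated. It left the top on the non-irradiated arrays of number 2 and on no other array, and obshum40K:B#41980, at place 1389 with ligand, 81 with radiation, 100 with ligand and radiation and 1314 untreated in number 2, had the same order.

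The remaining 2 of those 6 each rest on 1 value. Of 5400 member values on treated arrays, 7 lay below the median probe of their array, each from a different member, and 4 of these were on the ligand and radiation arrays of number 2. There obshum40K:A#08670 had an intensity of 16.0 at place 19688, against 4626 on the untreated array of that number, and its worst place on any other treated array was 419. Likewise obshum40K:A#30230 was at 120 and place 18963, against 21173 untreated, with 190 as its next worst place. The labels and files give no reason for these spots.

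Against untreated cells, the members can be compared only if the untreated array compared is kept out of the choice. The members were therefore chosen again for each number from the untreated arrays of the other 2 numbers, and the log2 difference was taken within the number left out. With ligand the median difference over members was 0.05, -0.03 and 0.07 in numbers 1, 2 and 3. With radiation it was 0.04, 0.95 and 0.06, and with ligand and radiation -0.08, 0.71 and 0.11. The means were 0.03 ± 0.05 for ligand, 0.35 ± 0.52 for radiation and 0.25 ± 0.41 for ligand and radiation (SD, n = 3 numbers each), each smaller than its own spread over the numbers, and the medians of all probes stayed between -0.05 and 0.04. These 3 comparisons share the untreated arrays.

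The values above 0.5 come from number 2 alone and mostly from letter A. There the members chosen on numbers 1 and 3 had a median difference of 2.06 with radiation and 2.16 with ligand and radiation on letter A, against 0.46 and -0.01 on letter B, and both directions held large changes. With radiation, 298 of the 600 (49.7%) were more than 2-fold higher than on the untreated arrays of number 2 and 54 (9.0%) more than 2-fold lower, against 6.63% and 5.71% of all probes. With ligand and radiation, 282 (47.0%) were higher and 75 (12.5%) lower by that limit, against 7.12% and 5.77% of all probes. The members chosen without number 2 shared 158 (A) and 211 (B) probes with the full choice. They were chosen partly on untreated number 1, whose letter the arrays of number 2 resembled unequally. On letter A the radiation array of number 2 shared 228 to 240 brightest probes with number 1. The ligand and radiation array shared 230 to 242 and the untreated array 128 to 130. On letter B these were 229 to 246, 154 to 159 and 154 to 167. The values of number 2 are therefore not free of the choice, and its part in them was not tested. Without number 2, the mean differences were 0.06 for ligand, 0.05 for radiation and 0.01 for ligand and radiation. In numbers 1 and 3 the members' median signed difference from untreated was at most 0.11 in size on the log2 scale after each treatment. Higher and lower members cancel in it. In number 3, 51 members (8.5%) were more than 2-fold higher with radiation and 54 (9.0%) lower, against 652 and 918 of 39395 probes. With ligand and radiation they were 65 (10.8%) and 39 (6.5%), against 893 and 654 of 39399. With ligand they were 18 (3%) and 26 (4.33%), against 344 and 610 of 39399. Each of these shares in number 3 was larger than that of all probes. In number 1, 4 members (0.667%) were higher by that limit with ligand and 11 (1.83%) lower, against 269 and 423 of 39393 probes. With radiation they were 6 (1%) and 7 (1.17%), against 472 and 862 of 39378. With ligand and radiation they were 8 (1.33%) and 5 (0.833%), against 794 and 643 of 39325. Only the share lower with ligand was larger than that of all probes in number 1.

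Cells given the ligand before radiation were compared with cells irradiated alone. No untreated array enters the differences of that contrast, but the untreated arrays that chose the members do enter the spread behind the p-values, which limma estimated over all 4 groups. In limma's test over all probes, 0 of 600 members passed an adjusted p of 0.05, against 0% of all probes. At an unadjusted p under 0.05, 1 member was higher and 6 were lower in the ligand and radiation samples, against 0.546% and 0.47% of all probes, which is 0.167% and 1% of members. More than 2-fold higher were 2 members (0.333%, against 1.02% of all probes) and more than 2-fold lower were 4 (0.667%, against 0.429%). With the replicate number as a block, 0 members passed the adjusted threshold in limma's test, against 0% of all probes. At an unadjusted p under 0.05 the block gave 3 members higher (0.5%) and 54 lower (9.0%), against 3.45% and 3.34% of all probes, so the counts went up for all probes too. Of the 54 lower members, 51 were on letter B.

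The median log2 difference of the members between ligand and radiation and radiation alone was -0.11, against -0.03 for all probes, and was -0.14, -0.26 and -0.02 in numbers 1, 2 and 3. On letter A the median was 0.01, with 156 members higher and 144 lower. On letter B it was -0.22, with 72 higher and 228 lower, and the sign on B turned under median scaling, which gave 0.04. The authors' normalized table gave 0.68 on A and -0.56 on B, against 0.17 and -0.24 for all probes of the letters. The sign on letter B thus depends on the scaling.

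Among members with an unadjusted limma p under 0.05 and 1 sign in all 3 numbers, obshum40K:A#42310 had the widest higher value. It was at 13.52 ± 0.46 with ligand and radiation and 12.55 ± 0.73 with radiation alone (SD, n = 3 each). Its differences were 0.54, 1.02 and 1.34 in numbers 1, 2 and 3, and limma gave a log2 difference of 0.96 (SE 0.38), an unadjusted p of 0.0284 and an adjusted p of 0.99999. In limma's fit of the compared groups alone the unadjusted p was 0.0666. The widest lower value by that rule was that of obshum40K:B#36834, at 12.46 ± 0.65 and 13.19 ± 0.20 in the same order, with differences of -0.27, -0.56 and -1.35. In limma's fit the log2 difference was -0.73 (SE 0.30), with an unadjusted p of 0.0337 and an adjusted p of 0.99999, and it was -0.42 without number 3. Under median scaling it was -0.18 and on values as deposited -0.087, so its size depends on the scaling. The groups overlap for both probes, and neither passed the threshold over all probes.

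Cells given the ligand before radiation were also compared with cells given the ligand alone. In limma's test 0 of 600 members passed an adjusted p of 0.05, against 0% of all probes, and with the replicate block it was again 0, against 0%. At an unadjusted p under 0.05, 6 members were higher and 14 lower in the ligand and radiation samples, against 0.335% and 0.221% of all probes, or 1% and 2.33% of members. With the block these counts were 13 (2.17%) and 62 (10.3%), against 2.15% and 2.73% of all probes. More than 2-fold higher were 25 members (4.17%, against 1.96% of all probes) and more than 2-fold lower were 21 (3.50%, against 0.779%). The members' wider spread over numbers, given above, moves with these larger shares in both directions, and its part in them was not tested. In number 2 the choice itself also bears on this contrast, as given below. With members chosen without untreated number 2, limma's counts at an unadjusted p under 0.05 were again 6 higher and 14 lower. The 2-fold counts were not redone with that choice.

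The members' median log2 difference between ligand and radiation and ligand alone was -0.17, with 418 of 600 members lower, against -0.03 for all probes, and was -0.15, -0.36 and -0.08 in numbers 1, 2 and 3. In number 2 this contrast is not free of the choice, because the ligand array shared 258 (A) and 272 (B) of its brightest probes with the untreated array that helped to choose the members. With the members chosen without the untreated array of the number compared, the medians were -0.13, 0.82 and 0.08, so the sign in numbers 2 and 3 turned. In number 2 this second choice is not free either, as it rests partly on untreated number 1. On letter A the ligand and radiation array of number 2 shared 230 to 242 brightest probes with number 1, and the ligand array 126 to 127. On letter B these were 154 to 159 and 142 to 157. The median of 0.82 was 2.05 on A and 0.12 on B. The sign in number 2 thus depends on the choice.

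Members with a larger p reached wider values in both directions of this contrast. Among members with an unadjusted limma p under 0.05 and 1 sign in all numbers, obshum40K:B#30852 had the widest higher value. Its value rests on 1 array. It was at places 40, 45 and 24 with ligand and radiation and at 45, 93 and 1970 with ligand alone, where its intensity was 39905, 9179 and 490. The differences were 0.12, 0.75 and 4.44 in numbers 1, 2 and 3. In limma's fit the log2 difference was 1.77 (SE 0.76), with an unadjusted p of 0.0408 and an adjusted p of 0.99997, and it was 0.43 without number 3. The widest lower value by that rule was steadier. For obshum40K:A#03196 the places were 69, 69 and 91 with ligand and radiation and 22, 10 and 20 with ligand alone, and the normalized levels were 13.59 ± 0.16 and 14.77 ± 0.32 (SD, n = 3 each). The groups do not overlap, and the differences were -0.88, -1.45 and -1.21. limma gave a log2 difference of -1.18 (SE 0.42), an unadjusted p of 0.0183 and an adjusted p of 0.99997. Its untreated places were 83, 8 and 77, so the untreated array of number 2 resembled the ligand arrays and the other untreated arrays did not.

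The members were not spread evenly over the identifiers, which the choice did not use. With the probes of letter A cut into 10 equal parts by identifier number, the last part (37064 to 45003) held 90 of the 300 members (30.0%), against 20 to 30 in each of the others, and 20 of the 31 A members that were in the brightest 300 on all 12 arrays. On the treated A arrays this part supplied 68 to 104 of the 300 brightest probes, and its members were there on a median of 6 of 9 treated arrays, against 3 for the other members. On letter B the ninth part (38985 to 42066) held 59 members (19.7%), against 20 to 39 in the others, and supplied 39 to 65 of the brightest 300 on the treated arrays. Its members were there on a median of 6 of 9 treated arrays, against 5 for the other B members. What sets these identifiers apart was not analysed here.

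The place of members in the listed order of spots was described too. The spots listed for the untreated array of number 1 were cut here into 48 runs of 420. A run held 0 to 14 members on A and 2 to 12 on B, against a mean of 6.25. On A the probes of the last identifier part were themselves unevenly placed, with 3 to 95 in a run, so position and identifier cannot be told apart there. On B the ninth part had 37 to 44 probes in each run. In the listed order, 30 members on A and 17 on B had another member beside them. The counts that random placement would give, per run or for neighbours, were not worked out.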

How the data were processed

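Spot intensities of 24 one-colour Cy3 arrays were deposited by the authors on a linear scale, with "not detected" spots left as missing here (124 of 472800 probe values, none of a member). How the intensities were scanned and background-corrected is not given in the sources used here. For 19667 (A) and 19613 (B) probes a further table that the authors deposited holds normalized log2 values. Its order matched the intensities on every array (lowest Spearman correlation 1.00), its method is not stated, and it served as an alternative. Ranks were taken within each array on the intensities. Array medians of log2 intensity differed by up to 4.29 (A) and 1.57 (B), so log2 intensities were quantile normalized within each letter. limma 3.58.1 in R 4.3.3 (lmFit and eBayes) was fitted to the 12 arrays of each letter with 4 groups and no block, and p-values were adjusted by Benjamini-Hochberg over both letters. The fit was tested on simulated data. Tables were handled in Python 3.11.15 with pandas 2.3.3 and numpy 2.4.6. The number of arrays limits the precision.

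Replicate numbers come from the sample titles. Samples of 1 number deviated together from their group means: over 18 pairs per letter the lowest correlation was 0.22 (A) and 0.20 (B). Differences per number therefore pair samples of equal number. The main limma fit ignored the pairing, and the block was fitted as an alternative. With the block, limma's unadjusted p was 0.0063 for obshum40K:A#42310, 0.0075 for obshum40K:B#36834, 0.042 for obshum40K:B#30852 and 0.0044 for obshum40K:A#03196. Their adjusted p was 0.72 in the contrast with radiation and 0.81 in that with ligand. Named probes are, per letter, the 5 best mean ranks, the probes on either side of the limit, the 3 narrowest and 3 widest spreads over the treated arrays, and per contrast the widest member in each direction among those with an unadjusted p under 0.05 and 1 sign in all numbers. Members and lists were chosen with earlier results of these data known. The lists of gene groups and cell markers were not used, as the files pair no probe with a gene name. Alternatives were the scaling, an offset, the authors' table, the block, leaving out each number, and other choices of members.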

Additional observations from a re-analysis of the deposited data

How the results depend on the processing

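The counts of members passing limma's adjusted threshold stayed at 0 in all 64 refits of the 2 counts, the replicate block among them. At an unadjusted p under 0.05, limma called 57 members with the block for ligand and radiation against radiation (7 without it) and 75 against ligand (20 without it). Over all 39400 probes the counts were 2676 with the block (400 without it) and 1920 (219 without it), so the pairing raised them generally and changed no adjusted call. Leaving out each sample or number in turn gave 4 to 13 and 4 to 34. The members' median difference against radiation (-0.11) was 0.033 under median scaling and 0.41 on values as deposited, where all probes moved by 0.45, and stayed between -0.21 and -0.09 with samples left out. Against ligand (-0.17) it was -0.68 on values as deposited, where all probes moved by -0.53, 0.26 with members chosen without the untreated array of the number compared, 0.28 with members chosen without untreated number 2, and -0.27 to -0.11 with samples left out. The share of members in the brightest 300 (50.5%) was 43.0% for the top 100, 59.4% for the top 1000, each against a limit of its own size, 59.7% for members chosen by mean normalized level, and 46.2%, 65.2% and 58.8% for members chosen without untreated number 1, 2 or 3. Leaving numbers out gave 47.2% to 53.8%. The median spread within a treatment (0.58) was 0.80 under median scaling, 1.56 on values as deposited, 0.75 for members chosen by mean level, 0.73 and 0.78 for members chosen without untreated number 2 or 3, and 0.31 to 0.58 with a number left out. With a number left out, the share of squares going with treatment (13.4%) was 13.8% to 39.3% and that going with number (58.5%) 22.8% to 72.3%. Number then had fewer degrees of freedom than treatment. Against untreated cells, the mean for ligand (0.03) was 0.10 under median scaling, that for radiation (0.35) was -0.62 on values as deposited, and that for ligand and radiation (0.25) was -0.28 on values as deposited and -0.18 for members chosen on all 3 untreated arrays. With a number left out these means were 0.01 to 0.06, 0.05 to 0.51 and 0.01 to 0.41. Where no cause is named, the cause was not tested. Centring each run of spots, the choice after it, the choice without the number compared in the 2 contrasts, and leaving out numbers against untreated cells were chosen after seeing the data. Values near the 16-bit limit on the arrays of number 1 and the dim arrays of number 3 limit how finely the brightest probes can be ordered.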
